A study of Mus musculus with 12 samples.

Results

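The comparison concerned germinal center B cells that still transcribed mainly the IgM heavy chain and those that transcribed mainly the IgG1 heavy chain. A cell was a member when the authors' annotation placed it in the dark zone (DZ) or light zone (LZ), when it held at least 3 unique molecular identifiers (UMIs, each standing for 1 captured RNA molecule) over the heavy-chain constant genes Ighm, Ighd, Ighg1, Ighg2b, Ighg2c, Ighg3, Igha and Ighe, and when Ighm or Ighg1 alone led that count. The rule found 3045 members among 5253 DZ and LZ cells and 6000 cells in all. The IgM side held 2204 cells, with 577, 683 and 944 from mice 1, 2 and 3. The IgG1 side held 841 cells, with 292, 276 and 273.

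All cells were taken from the draining nodes of 3 mice that had been given NP-KLH with Sigma Adjuvant System, on day 16 of the primary response, 5 days after tamoxifen was given by gavage. Live eYFP+ cells lacking surface IgD were sorted, marked per mouse with barcoded antibodies to CD45, and run on 10x Genomics 5' chemistry, with plasma cells and other B cells in separate wells. Every mouse received the same antigen, adjuvant and tamoxifen, and both isotype sides came from each of the 3 animals. The genotype, the Cre driver behind the eYFP label, strain and age were not given in the sources used here, so which cells tamoxifen could mark is not known from them. The cells were chosen by eYFP and do not stand for all germinal center cells of these nodes.

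In a germinal center, B cells divide and mutate their antibody genes in the dark zone and compete for antigen and T cell help in the light zone. Class switching is a DNA recombination that replaces the Cmu exons behind the rearranged variable region with those of another isotype, so that IgM and IgG1 cells can carry the same antigen-binding site. Membrane IgG1 has a longer cytoplasmic tail than membrane IgM, and both signal through Cd79a and Cd79b. IL-4 from T cells favours the switch to IgG1 in mice.

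The first exon of each constant region (CH1) is shown because it lies next to the variable region in the transcript and sets how well reads of the isotypes can be told apart. The first 100 bases are given 5' to 3' on the minus strand of chromosome 12 (GRCm38, GENCODE). Capitals mark the bases at which Ighg1 and Ighg2b differ, and Ighm is printed without marks.
Ighg1, exon chr12:113330233-113330523: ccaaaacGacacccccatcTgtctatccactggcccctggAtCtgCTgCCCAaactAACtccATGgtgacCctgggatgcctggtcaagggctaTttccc
Ighg2b, exon chr12:113307643-113307933: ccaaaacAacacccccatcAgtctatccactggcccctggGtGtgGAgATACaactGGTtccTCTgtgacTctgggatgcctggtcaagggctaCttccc
Ighm, exon chr12:113422416-113422730: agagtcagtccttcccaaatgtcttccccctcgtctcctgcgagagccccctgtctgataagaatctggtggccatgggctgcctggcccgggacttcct
Over the whole exon, Ighg1 and Ighg2b were identical at 88.3% of aligned positions, and Ighg1 and Ighm at 49.4%. An Ighm read is therefore easily told from an Ighg1 read, while the IgG genes are more alike. How far their reads were split among them by the authors' counting was not tested. In plasma cells led by Ighg1, 96.1% of heavy-chain UMIs were Ighg1 and 0.285% Ighg2b. In those led by Ighg2b, 94.5% were Ighg2b and 0.578% Ighg1.

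The constant genes that chose the sides are described without a test. On the CPM scale (a gene's UMIs in the summed cells, scaled to the same total in every sum), Ighm stood at 868, 721 and 803 CPM in the IgM cells of mice 1, 2 and 3 and at 88.2, 82.3 and 97.6 CPM in the IgG1 cells. Ighg1 stood at 74.0, 60.4 and 55.0 CPM in the IgM cells and at 568, 534 and 524 CPM in the IgG1 cells. Each side thus held a lower level of the other side's transcript. Ighm made up 85.3% of heavy-chain UMIs on the IgM side and 13.2% on the IgG1 side, where 46.1% of cells held at least 1 Ighm UMI. Cells led by Ighg2b held an Ighm UMI in 38.7% of cases and an Ighg1 UMI in 22.1%, at a median of 8377 UMIs per cell against 7563 on the IgG1 side. In cells annotated as plasma cells (PC) and led by Ighg1, Ighm was only 2.85% of heavy-chain UMIs. Whether the minor transcript came from free RNA, from germline transcripts or from cells in the course of switching was not tested.

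Of all DZ and LZ cells, 1308 held under 3 heavy-chain UMIs and 237 had a tie for the lead, and neither group entered a side. Of the cells that could be called, Ighm led in 59.4% ± 2.96 (SD, n = 3 mice) and Ighg1 in 23.7% ± 6.63, with 30.8%, 22.6% and 17.7% in mice 1, 2 and 3. Ighg2b led in 429 cells, Ighg2c in 131, Ighg3 in 84, Igha in 9, Ighe in 6 and Ighd in 4. Just inside the threshold, at 3 heavy-chain UMIs, 289 cells were led by Ighm and 190 by Ighg1. Just outside it, at 2 UMIs, 150 were led by Ighm and 126 by Ighg1, and 274 of 626 cells were tied.

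Depth was alike on both sides: the median UMIs per cell was 7533 for IgM and 7563 for IgG1, and the summed cells of a mouse and side held 2420152 to 8079557 UMIs. The median number of heavy-chain UMIs was 7 on the IgM side and 5 on the IgG1 side. The mice were numbered by the deposited mouse names, and no barcode was shared between the deposited barcode series. Germinal center identity held on both sides, with S1pr2, the receptor that confines germinal center cells, between 176 and 205 CPM in all 6 sums. Markers of other cell types were near 0: the T cell list summed to 0.834 to 2.22 CPM in IgM and 0 to 1.22 CPM in IgG1 cells, and the stromal list to 0 to 0.638 and 0 to 0.813 CPM. The NK cell list was at 0 on both sides. The myeloid list summed to 0.425 to 1.85 CPM in IgM cells and 1.65 to 17.5 CPM in IgG1 cells, with Csf1r and C1qa at 0 in the first and Itgam, C1qc and Adgre1 at 0 in the second. The erythroid list summed to 6.92 to 9.67 and 6.18 to 17.1 CPM.

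Some genes outside the heavy-chain locus were called between IgM and IgG1 cells, and their number varied with the fit. With 3 pairs, a gene that was not called is not shown to be equal. Of 9289 genes tested, 47 passed an adjusted p of 0.05 (0.506%) in edgeR's quasi-likelihood test with the mouse as a block, 34 of them higher in IgM cells (0.366%) and 13 higher in IgG1 cells (0.14%). DESeq2's Wald test called 20 (0.215%). With immunoglobulin genes left out of the edgeR fit, 129 of 9201 genes passed, 89 higher in IgM and 40 in IgG1. Of these, 32 were among the 47. The median log2 difference over all genes tested was -0.0016, which the scaling of the sums holds near 0. The groups of 3 mice did not overlap for 1337 genes (14.4%), which is the background for every statement on overlap here. Of the 34 genes higher in IgM, 25 were neither light chain segments nor light chain constant genes, and 7 of the 13 higher in IgG1 were of that kind. Among the genes of that kind in the IgM set are Cd72, Lmo4, Ly6d, Foxp1, Ifi27l2a, Apoe and Fcmr, and in the IgG1 set Slpi, Ccdc175, Tox and Syngr2.

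**Figure D1:**
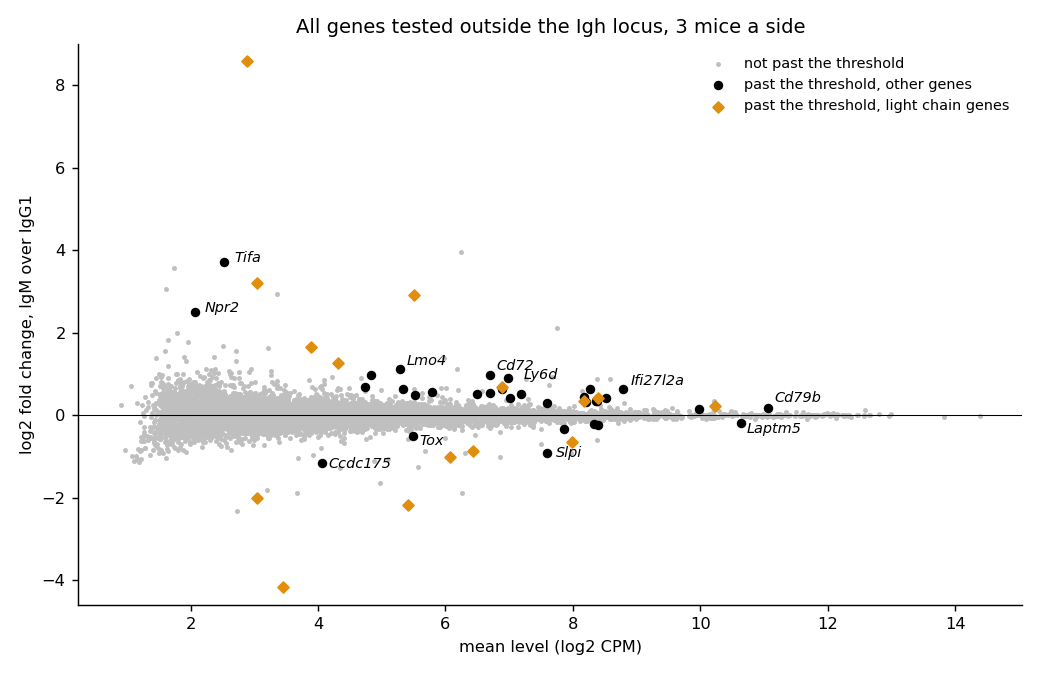
Log2 difference of IgM over IgG1 cells (vertical axis) against mean log2 CPM (horizontal axis) for the 9289 genes tested; black points are the called genes other than light chain genes, orange diamonds the called light chain genes. Most genes lie along 0, and the widest differences are light chain segments, of which 1 had 0 UMIs on the IgG1 side and a fitted value that is no measured size.

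Genes of the cell surface and the antigen receptor are described first. Cd72 (chr4:43446462-43454628, GRCm38), an inhibitory co-receptor of B cells with tyrosine motifs that recruit a phosphatase, stood at 126, 147 and 120 CPM in IgM cells and 65.0, 67.7 and 66.7 CPM in IgG1 cells. All 3 IgM values lay well above all 3 IgG1 values. The log2 difference was 0.98 ± 0.08 (SE, adjusted p = 0.000917, edgeR, n = 3 mice). Cd72 was the only one of 7 tested inhibitory receptors and phosphatases that passed; the list's median was 0.11. Among the others, the sialic acid-binding receptor Cd22 had a log2 difference of -0.13 (adjusted p = 0.515, edgeR) and the inhibitory IgG receptor Fcgr2b 0.17 (adjusted p = 0.792, edgeR).

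Fcmr, the Fc receptor for IgM, was picked out after its values were seen. It stood at 371, 299 and 313 CPM in IgM cells and 276, 218 and 232 CPM in IgG1 cells, with no overlap and a log2 difference of 0.44 ± 0.04 (adjusted p = 0.00172, edgeR). Cd2, an adhesion receptor that also sits on mouse B cells, was higher in IgM by 0.51 ± 0.07 on the log2 scale. Ly6d (chr15:74762056-74763620), a GPI-anchored surface protein used to mark B lineage cells, stood at 147, 164 and 158 CPM in IgM cells and 71.9, 70.9 and 111 CPM in IgG1 cells. IgG1 cells of mouse 3 had the highest Ly6d of that side and were still below every IgM value. Its log2 difference was 0.90 ± 0.12 (adjusted p = 0.0125, edgeR).

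Of 20 tested genes of the B cell receptor complex and its signalling, 1 was higher in IgM and none in IgG1, and the median was 0.03. That gene, the signalling subunit Cd79b, stood at 2346, 2280 and 2199 CPM in IgM cells against 2160, 1978 and 1899 CPM in IgG1 cells. The IgM values were all above the IgG1 values, by a small margin, with a log2 difference of 0.18 ± 0.02 (adjusted p = 0.0144, edgeR). Its partner Cd79a had 0.08 (adjusted p = 0.187, edgeR). Both light chain constant genes that passed were also higher in IgM: Igkc by 0.22 ± 0.04 and Iglc2, a lambda constant gene, by 0.42 ± 0.04 on the log2 scale. Mzb1, an endoplasmic reticulum protein that assists antibody assembly, was higher by 0.15 ± 0.03 and was the only one of 8 plasma cell genes to pass; it did so in 9 of 20 alternatives. The joining chain gene Jchain had 0.10 (adjusted p = 0.381, edgeR), and Prdm1, the plasma cell regulator, was at 0.412 to 1.11 CPM in all sums and too low to test.

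**Figure D2:**
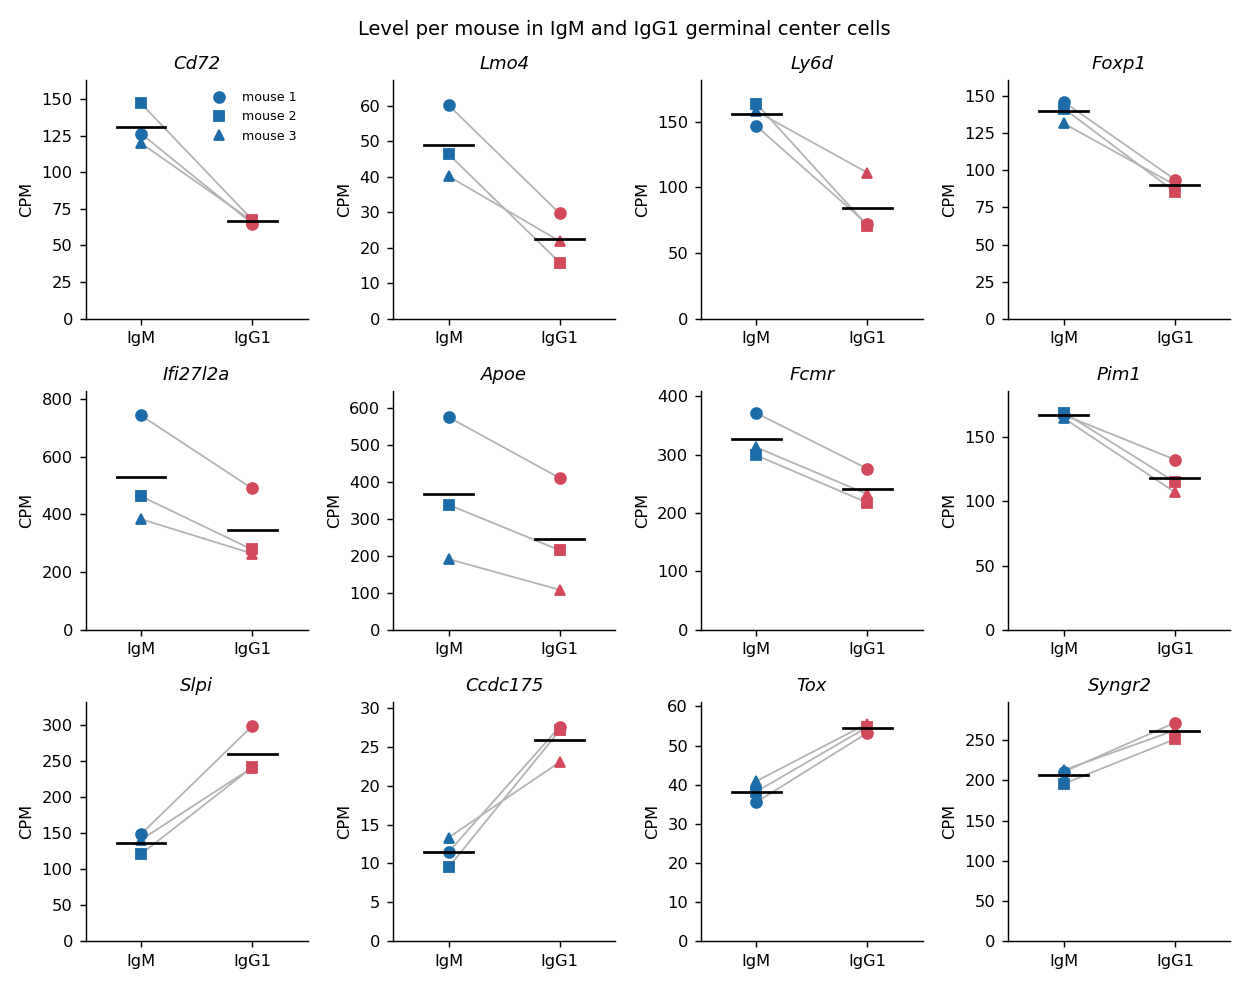
CPM of 12 genes in the summed IgM and IgG1 cells of each mouse; each line joins the sides of 1 mouse and black bars are means of 3 mice. For Cd72, Lmo4, Ly6d, Foxp1, Fcmr and Pim1 every IgM point is above every IgG1 point; for Slpi, Ccdc175, Tox and Syngr2 every IgG1 point is above every IgM point; Apoe and Ifi27l2a overlap between mice but differ in 1 direction within each.

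Lmo4 (chr3:144188530-144205220), a LIM-only cofactor that bridges transcription factors, stood at 60.1, 46.4 and 40.1 CPM in IgM cells and 29.7, 15.8 and 21.8 CPM in IgG1 cells. The sides did not overlap, and the log2 difference of 1.13 ± 0.12 (adjusted p = 0.00475, edgeR) was the widest among named genes higher in IgM. Foxp1 (chr6:98925338-99522721), a forkhead factor abundant in naive B cells and held low in germinal centers, stood at 146, 142 and 132 CPM against 93.9, 85.5 and 90.2 CPM. Its log2 difference was 0.64 ± 0.06 (adjusted p = 0.00433, edgeR). Nfatc1, a calcium-dependent factor downstream of the antigen receptor, was higher in IgM by 0.56 ± 0.09 and passed in 9 of 20 alternatives.

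Foxp1 was the only one of 8 tested genes of naive or follicular B cells to pass. The median of that list was 0.45, and 5 of the 8 had an unadjusted p under 0.05 in edgeR. Over all genes tested 760 of 9289 did (8.18%). The summed level of the list was 580 to 608 CPM in IgM and 534 to 556 CPM in IgG1 cells. Its mean was 597 against 547 CPM, of which Foxp1 held 140 and 89.9 CPM. The gap in the sum was thus about that of Foxp1 alone, and the sum says nothing further on the other genes. Of 11 tested memory B cell genes none passed in edgeR or DESeq2, 4 had an unadjusted p under 0.05, and the median was 0.25. Cd38, which naive and memory B cells express and mouse germinal center cells lose, stood at 4.9 to 5.5 CPM in IgM and 1.2 to 4.9 CPM in IgG1 cells (log2 difference 0.84, adjusted p = 0.611, edgeR).

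Ifi27l2a, an interferon-induced gene, stood at 742, 462 and 383 CPM in IgM cells and 490, 278 and 264 CPM in IgG1 cells. Mouse 1 was highest on both sides, so the sides overlapped across mice while IgM was higher within each. The log2 difference was 0.62 ± 0.04 (adjusted p = 0.000403, edgeR). It was the only one of 12 interferon-induced and T-bet related genes to pass, and the list's median was 0.14. Apoe, the lipid carrier apolipoprotein E, showed the same order of mice, with 574, 338 and 191 CPM in IgM cells and 410, 215 and 108 CPM in IgG1 cells. Its log2 difference was 0.64 ± 0.06 (adjusted p = 0.0021, edgeR). Without the mouse as a block the calls of Ifi27l2a (adjusted p = 0.666, edgeR) and Apoe (adjusted p = 0.852, edgeR) were lost, and for both genes the mice lay further apart than the sides. In all, 21 of the 25 named calls were lost without the block, among them Lmo4 (adjusted p = 0.159) and Ly6d (adjusted p = 0.116). Macrophages also make Apoe. The myeloid list summed to 0.425, 0.50 and 1.85 CPM in IgM cells and 17.5, 2.84 and 1.65 CPM in IgG1 cells. These sums rest on 20 UMIs in IgM and 54 UMIs in IgG1 cells. Whether RNA of other cells had a part in the Apoe values was not tested.

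Other genes higher in IgM had smaller differences. Pim1, a serine/threonine kinase induced by cytokines, was named after its values were seen and stood at 167, 169 and 165 CPM in IgM and 132, 115 and 107 CPM in IgG1 cells (log2 0.50 ± 0.07). Uap1, an enzyme of UDP-N-acetylglucosamine synthesis, was higher by 0.62 ± 0.08, and Arl5c, a small GTPase of the ARF family, by 0.54 ± 0.09. The predicted gene Gm12678 (0.97 ± 0.13) and 1190002F15Rik (0.67 ± 0.11) completed the 12 with the widest differences above 20 CPM, light chain segments aside. 1190002F15Rik passed in 6 of 20 alternative analyses, and it missed the threshold with any 1 of the 3 mice left out (adjusted p 0.0598 to 0.0788, edgeR). Uap1 passed in 13, Arl5c in 12, Gm12678 and Pim1 in 15. Apart from light chain segments, both calls below that level were higher in IgM: Tifa, an adaptor of TRAF6 signalling, at 9.14, 7.34 and 6.30 CPM against 0, 0.405 and 1.24 CPM, and Npr2, a natriuretic peptide receptor, at 10.4, 4.34 and 1.98 against 1.63, 0.405 and 0.824 CPM.

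On the IgG1 side, Slpi gave the firmest difference. Slpi (chr2:164354070-164389095) encodes a secreted inhibitor of serine proteases of leukocytes. It stood at 148, 121 and 140 CPM in IgM cells and 298, 241 and 241 CPM in IgG1 cells, and 41.0% of IgM cells and 58.3% of IgG1 cells held at least 1 of its UMIs. The IgG1 values were all above the IgM values by a wide margin, with a log2 difference of -0.93 ± 0.06 (adjusted p = 0.000397, edgeR). It passed in all 20 alternative analyses, with log2 differences from -1.51 to -0.60. Plasma cells hold far more Slpi than germinal center cells in these data. The plasma cell list summed to 3023 to 3391 CPM in IgM and 2894 to 3227 CPM in IgG1 cells. Of that sum Mzb1, found in 99.0% of IgM and 98.9% of IgG1 cells, averaged 1062 and 954 CPM. Whether RNA of plasma cells had a part in the Slpi values was not tested. Ccdc175, which encodes a coiled-coil protein, stood at 11.5, 9.50 and 13.3 CPM in IgM cells and 27.6, 27.2 and 23.1 CPM in IgG1 cells (log2 -1.17 ± 0.17, adjusted p = 0.0209, edgeR). It had 219 and 191 UMIs in all, and it passed in 11 of 20 alternatives.

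Tox, an HMG-box DNA-binding factor, stood at 35.5, 38.2 and 40.9 CPM in IgM and 53.2, 54.7 and 55.6 CPM in IgG1 cells (log2 -0.51 ± 0.07, adjusted p = 0.0228, edgeR). The sides were narrow and apart. The 4 others higher in IgG1 were Syngr2, a vesicle membrane protein (-0.34 ± 0.04), the tetraspanin Cd53 (-0.24 ± 0.04), Swap70, described as a switch-associated protein of B cells (-0.22 ± 0.04), and Laptm5, a lysosomal protein that lowers surface antigen receptor (-0.19 ± 0.03). None of these 4 overlapped between sides. Of 20 alternatives Swap70 passed in 6, Cd53 in 8, Tox in 10, Laptm5 in 11 and Syngr2 in 14. The genes nearest to the threshold on the IgG1 side did not pass: Lmo2, a LIM-only factor of germinal center cells, had a log2 difference of -0.57 (adjusted p = 0.0543, edgeR), the DNA damage sensor Parp1 -0.20, Ppap2a -0.53, Shisa8 -0.81 and Basp1 -0.20.

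The lists that follow are given with the number of genes at an unadjusted p under 0.05, which over all genes tested was 760 of 9289 (8.18%). No gene of the core germinal center lists passed. Of 10 tested germinal center identity genes and 19 of class switching and hypermutation, none passed in edgeR or DESeq2, with 3 at an unadjusted p under 0.05 in each list and medians of 0.02 and 0.01. Bcl6, the master repressor of the germinal center, had a log2 difference of 0.11 ± 0.10 (adjusted p = 0.848, edgeR). Pax5 had 0.10, Bach2 0.00, Irf4 0.17 and S1pr2 -0.12. None of the 14 genes of T cell help, IL-4 and STAT6 passed in edgeR or DESeq2 (3 at an unadjusted p under 0.05, median -0.03), with the IL-4 receptor subunit Il4ra at -0.04 and the IL-4-induced Fcer2a at -0.16.

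Zone and activation genes did not pass singly either. None of 10 dark zone genes (5 at an unadjusted p under 0.05, median 0.06) and none of 11 light zone genes (6, median -0.16) passed in edgeR or DESeq2. Cxcr4, which holds cells in the dark zone, had a log2 difference of -0.00, Cd83 0.04 and Cd86 -0.22 (adjusted p = 0.515, edgeR). Neither the 15 genes of NF-kB, MYC and the immediate early response (3 at an unadjusted p under 0.05, median -0.13) nor the 13 of MHC class II presentation (6, median -0.06) passed in either tool, and Myc itself had -0.29 (adjusted p = 0.569, edgeR). Among proliferation genes none of 23 S phase and 24 G2/M genes passed in either tool (1 and 5 at an unadjusted p under 0.05), and Mki67 had -0.04. For 20 cytosolic ribosomal protein genes the median was -0.0025, with 0 at an unadjusted p under 0.05 in edgeR and 0 called by DESeq2.

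The make-up by zone was compared over the 3 mice. DZ cells made up 63.3%, 64.0% and 57.2% of IgM members of mice 1, 2 and 3, and 58.2%, 59.4% and 52.0% of IgG1 members. IgM was higher within each mouse, by 4.93 ± 0.327 percentage points (SD, n = 3) (exact sign-flip permutation test, two-sided, p = 0.25). With 3 pairs 0.25 is the smallest p this test can give, so none of the 3 shares compared (zone, G1 and lambda) could pass a threshold of 0.05. The DZ share moved with the number of heavy-chain UMIs, which is also what decides whether a cell could be called. At 3 to 4 heavy-chain UMIs it was 50.0% ± 4.18 for IgM (559 cells) and 51.8% ± 3.83 for IgG1 (339 cells). At 5 to 9 it was 61.0% ± 2.96 and 56.2% ± 6.07, and at 10 or more 73.4% ± 6.15 (576 cells) and 74.7% ± 4.73 (97 cells). Within the lowest and the highest of these bins the IgM share was not above the IgG1 share. The bins did not match the sides for depth. From the lowest bin up, median UMIs per cell were 5864, 7276 and 10750.5 for IgM and 6438, 8094 and 12850 for IgG1. DZ cells were deeper than LZ cells on both sides, and the part of depth in the binned shares was not tested. Cells led by Ighg2b were 64.5% ± 5.43 DZ (n = 3), and cells under 3 heavy-chain UMIs 48.6% ± 4.29.

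**Figure D3:**
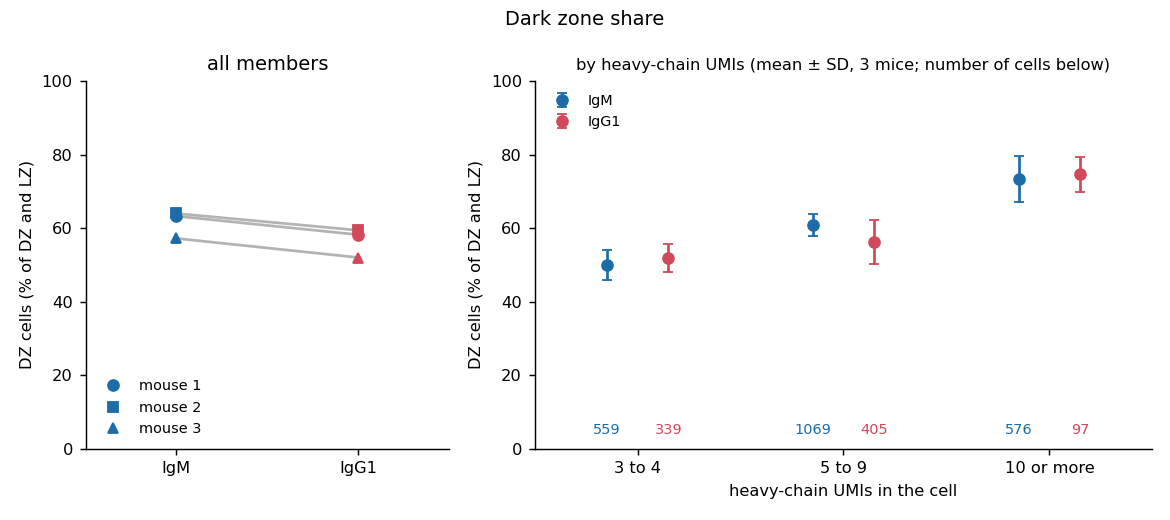
Share of DZ cells, in percent of DZ and LZ members, per mouse and side (left) and by the number of heavy-chain UMIs (right, mean and SD of 3 mice with cell numbers). IgM is above IgG1 by 4.56 to 5.19 percentage points within each mouse, while the share climbs from about 50.0% at 3 to 4 UMIs to 73.4% at 10 or more on the IgM side and does so on the IgG1 side too.

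Cell cycle calls were compared next. Cells called G1 made up 40.5% ± 1.60 of IgM and 41.8% ± 3.46 of IgG1 members, a difference of -1.34 ± 3.25 points (exact sign-flip permutation p = 0.75, n = 3). Within LZ cells G1 was lower in IgM in all 3 mice, by 2.67 ± 1.87 points (exact sign-flip permutation p = 0.25). Within DZ cells S phase was lower in IgM in all 3 mice, at 32.5% ± 2.20 against 36.3% ± 2.32 (difference -3.74 ± 4.17 points, exact sign-flip permutation p = 0.25), with mouse 3 furthest apart. The authors' dark zone score, an average of dark zone genes relative to control genes, had a mean of 0.0989 ± 0.00262 in IgM and 0.0857 ± 0.00346 in IgG1 cells of the dark zone, higher in IgM in 3 of 3 mice (exact sign-flip permutation p = 0.25). In LZ cells it was also higher in IgM in 3 of 3 mice, at -0.0151 against -0.0236. So was the light zone score of LZ cells, at 0.0764 ± 0.00586 against 0.0691 ± 0.00218 (exact sign-flip permutation p = 0.25 for each).

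The gene differences were then fitted with the zones taken into account. With zone as a term in the edgeR fit, 63 of 8251 genes passed (0.764%), of which 36 were also among the 47 of the fit without it. DZ cells alone gave 27 calls of 8764 (0.308%) and LZ cells alone 22 of 7782 (0.283%). Of the 25 named genes that passed over both zones, 13 missed the threshold in DZ cells alone and 16 in LZ cells alone. Cd72 was at 87.5 ± 16.2 CPM in IgM and 37.7 ± 6.33 CPM in IgG1 cells of the dark zone, and at 218 ± 32.7 and 114 ± 3.05 CPM in the light zone (SD, n = 3). Cd72 was thus higher in the light zone on both sides, and IgM was higher in each zone. Slpi was at 133 ± 16.5 and 240.4 ± 30.1 CPM in the dark zone and 145 ± 32.2 and 294 ± 41.5 CPM in the light zone. Lmo4 lay the other way by zone, at 59.7 ± 11.2 and 28.4 ± 10.2 CPM in the dark zone and 27.2 ± 5.45 and 12.4 ± 3.19 CPM in the light zone, where its call was lost (adjusted p = 0.206, edgeR). The widest gap between zones among these genes was that of Ccdc175, with a log2 difference of -0.85 in DZ and -1.67 in LZ cells (interaction unadjusted p = 0.0199, adjusted p = 0.992, edgeR). The test of a different isotype effect between zones called 0 of 8445 genes in edgeR (0.0%, 385 at an unadjusted p under 0.05) and 0 in DESeq2.

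Light chain variable segments made up 13 of the 47 calls. Of 84 tested segments 13 passed (15.5%), 7 higher in IgM and 6 in IgG1, against 34 of 9205 other genes (0.369%). Igkv5-37 had 24.4, 0 and 8.65 CPM in the IgM cells of mice 1, 2 and 3 and 0 UMIs in IgG1 cells. Igkv6-20 had 21.3, 21.8 and 8.28 CPM in IgM cells and 149, 91.2 and 15.7 CPM in IgG1 cells. Igkv19-93 had at most 4.20 CPM in any other sum and 88.6 CPM in the IgG1 cells of mouse 3. Their levels varied by mouse as much as by side. Cells of 1 mouse that share a segment can be sisters of 1 clone, and related segments share sequence, so counts of single segments are uncertain.

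Lambda usage gave no agreed value. By constant genes (Iglc1, Iglc2 and Iglc3 against Igkc), 55.7% ± 6.43 of IgM and 58.4% ± 0.973 of IgG1 cells were called lambda (exact sign-flip permutation p = 0.75, n = 3). Of cells whose leading light variable gene was kappa, 51.3% on the IgM side and 55.6% on the IgG1 side were called lambda this way, so the constant genes and the variable genes contradict each other. By the leading variable gene, an alternative added after seeing this, 14.1% ± 0.552 of IgM and 12.6% ± 1.03 of IgG1 cells were lambda, higher in IgM in 3 of 3 mice by 1.46 ± 1.39 points (exact sign-flip permutation p = 0.25). The difference of Iglc2 above carries the same uncertainty. Ighv1-72, the segment typical of NP-binding antibodies with a lambda light chain in C57BL/6 mice, led in 8.86%, 9.01% and 11.1% of IgM cells with a heavy variable call and in 3.11%, 8.64% and 7.69% of IgG1 cells. The IgG1 shares rest on 8, 21 and 19 cells.

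Pairs of a leading heavy and a leading light variable gene were then used to ask how far the sides held the same receptors. This was added after the main values were seen and uses gene names, not receptor sequences, so a pair can hold several clones. Of cells with such a pair, 55.6%, 52.0% and 56.1% on the IgM side and 59.2%, 59.7% and 77.9% on the IgG1 side had one seen on both sides in the same mouse. Refitted on these 1131 IgM and 483 IgG1 cells, edgeR called 38 of 8597 genes (0.442%), 17 higher in IgM (0.198%) and 21 in IgG1 (0.244%), and 16 of them were among the 47. Of the 25 named genes that passed over all members, 19 missed the threshold in these cells. Slpi stayed past the threshold (-0.60 ± 0.07, adjusted p = 0.000236, edgeR), as did Ifi27l2a (0.45 ± 0.07), Pim1 (0.45 ± 0.08), Apoe (0.40 ± 0.07), Uap1 (0.68 ± 0.14) and Igkc (0.26 ± 0.05). Cd72 fell short of it at 0.42 ± 0.10 (adjusted p = 0.10, edgeR), as did Foxp1 at 0.40 ± 0.09 (adjusted p = 0.0645, edgeR), Lmo4 at 0.56 ± 0.16 (adjusted p = 0.339, edgeR), Ly6d at 0.41 ± 0.15 (adjusted p = 0.666, edgeR) and Fcmr at 0.22 ± 0.06 (adjusted p = 0.331, edgeR).

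The levels behind this change are given as a description. In IgM cells whose pair was also seen on the IgG1 side, Cd72 was at 79.7, 111 and 82.5 CPM in mice 1, 2 and 3, and in IgM cells whose pair was seen only on their own side at 192, 191 and 177. In IgG1 cells the matching values were 63.2, 86.8 and 58.2 for shared pairs and 66.1, 43.0 and 94.3 for pairs seen only there. The IgM cells with a pair not seen among IgG1 cells held the highest values in every mouse, and IgM cells with shared pairs were above IgG1 cells with shared pairs within each mouse. In the few IgM cells with no pair Cd72 was at 39.6, 99.3 and 63.4 CPM. Ly6d followed the same order, with 101, 115 and 109 CPM in IgM cells with shared pairs and 211, 217 and 224 in those without. Lmo4 had 39.1, 32.3 and 32.1 against 88.9, 61.7 and 50.6, and Foxp1 123, 118 and 117 against 175, 163 and 146. Pim1 did not, with 162, 163 and 161 against 155, 174 and 161. Slpi ran the other way, with 163, 138 and 168 in IgM cells with shared pairs and 120, 104 and 113 in the rest, all below every IgG1 value.

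**Figure D4:**
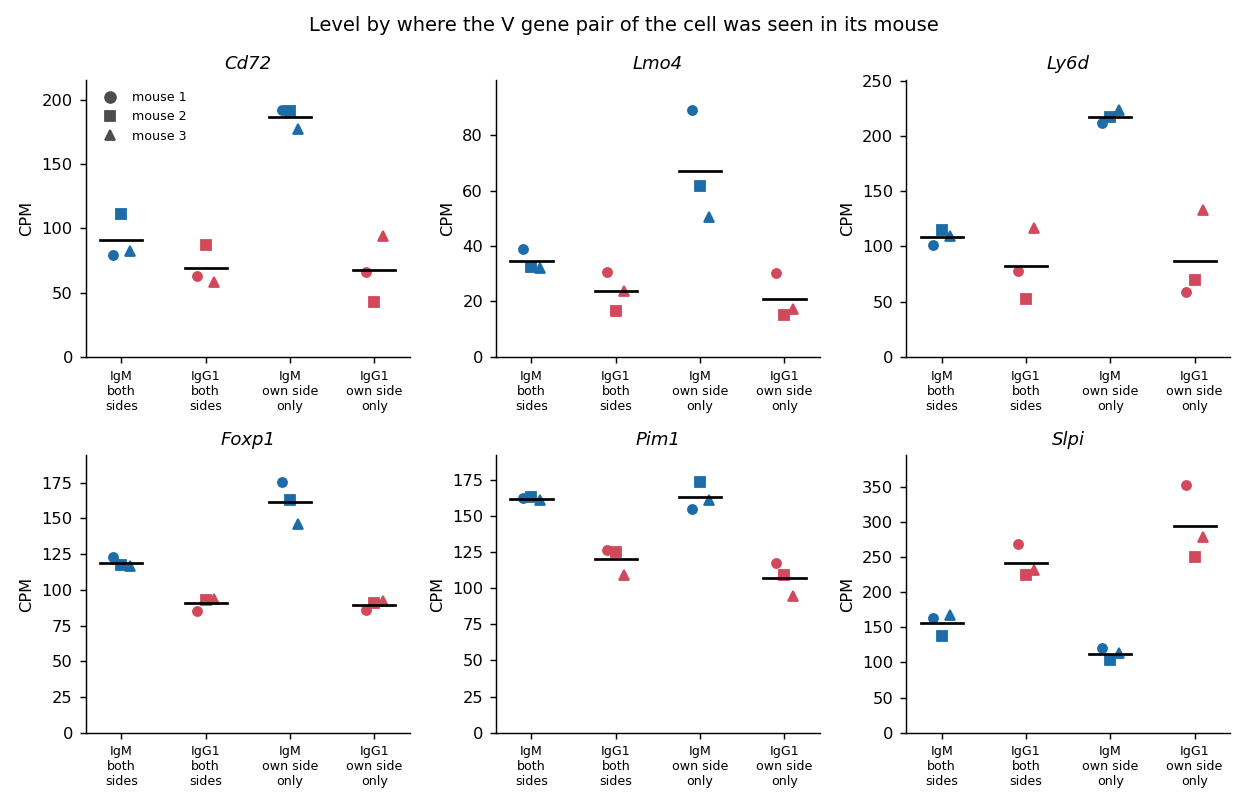
CPM of Cd72, Lmo4, Ly6d, Foxp1, Pim1 and Slpi per mouse, by side and by whether the cell's pair of heavy and light variable genes was seen on both sides or on its own side only. IgM cells with pairs of their own hold the highest Cd72 (177 to 192), Ly6d (211 to 224) and Lmo4 (50.6 to 88.9), and Pim1 shows no such step.

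On both sides the isotype call was less pure in cells with shared pairs. Ighg1 made up 7.25% of heavy-chain UMIs in IgM cells with shared pairs and 5.78% in those with pairs of their own, and Ighm 14.9% and 10.3% in the IgG1 cells. The share of DZ cells among cells with shared pairs was 63.8% ± 2.19 for IgM and 59.9% ± 3.39 for IgG1, a difference of 3.87 ± 1.90 points (exact sign-flip permutation p = 0.25, n = 3). The IgM side held 2069 cells with a pair and the IgG1 side 738. The part of this gap, of pair size and of the purity of the call in the values by pair was not tested.

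Some IgM cells carried receptors known from another B cell population. The pairs Ighv11-2 with Igkv14-126 and Ighv12-3 with Igkv4-91, named after they were seen, are known as phosphatidylcholine-binding receptors of B-1 cells. The first led in 3, 12 and 0 IgM cells of mice 1, 2 and 3 and the second in 33, 1 and 10. Together they made up 59 of 2069 IgM cells with a pair (2.85%) and 0 of 738 IgG1 cells, which allows a share of up to 0.407% by counting alone. Without these cells 47 of 9178 genes were called (0.512%), 43 of them among the 47 above, and Cd72 had a log2 difference of 0.92. Over all members that difference was 0.98. Only cells with these pairs were left out, and whether other cells of that population had a part in the Cd72 values was not tested.

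Cells led by other IgG genes are set beside both sides with no test, on CPM after TMM scaling; a comparison of each with IgM would use the same IgM cells. Cd72 was at a mean of 57.6 CPM in Ighg2b-led cells (3 mice) and 61.5 CPM in Ighg2c-led cells (2 mice), close to the 67.0 CPM of IgG1 and below the 133 CPM of IgM. Slpi was at 249.8 and 267.5 CPM, beside 262 CPM in IgG1 and 138 CPM in IgM cells. Lmo4 was at 23.3 and 28.7 CPM, beside 22.6 and 49.4 CPM, and Foxp1 at 94.8 and 84.0 CPM, beside 90.6 and 141 CPM. Tox was at 54.7 and 56.0 CPM, beside 55.0 and 38.6 CPM. Cells led by Ighg3 were fewer (2 mice) and wide apart, with Slpi at 28.5 and 429 CPM, Cd72 at 45.5 and 98.0 CPM and Tox at 28.5 and 53.8 CPM, while Lmo4 was at 17.1 and 17.3 CPM and Foxp1 at 91.1 and 92.3 CPM. For these 5 genes the means of Ighg2b-led and Ighg2c-led cells lay nearer to IgG1 than to IgM, and for Tox the mean of Ighg3-led cells, 41.1 CPM, lay nearer to IgM. Other called genes went the other way, with both means nearer to IgM. Cd53 was at 295 and 298 CPM, beside 370 CPM in IgG1 and 315 CPM in IgM cells. Swap70 was at 322 and 304 CPM, beside 350 and 302 CPM. Laptm5 was at 1597 and 1492 CPM, beside 1708 and 1498 CPM, and Uap1 at 38.6 and 47.1 CPM, beside 30.1 and 46.5 CPM.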

How the data were processed

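The authors deposited 1 pooled matrix of raw UMI counts for 6000 cells and 13886 genes, with a table giving each cell's mouse, annotated state, cell cycle phase and zone score. Per the submitters' processing notes, Cell Ranger and Seurat were used with mm10/GRCm38; versions, and how doublets or low-quality cells were removed before deposit, were not given in the sources used here, and no doublet caller was run. The authors' scores were used as deposited.

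The members, gene lists and tests were chosen with earlier results of these data known. Counts were summed per mouse and side and tested with edgeR 4.0.16 (R 4.3.3; TMM, filterByExpr, quasi-likelihood test, mouse as block, Benjamini-Hochberg adjustment over all genes tested, threshold 0.05). Genes of the heavy-chain locus stayed in the library sizes and out of the test. Both sides of a mouse come from 1 animal, which is the pairing; same-mouse deviations correlated at 0.112, 0.074 and 0.128 over 9201 genes. Shares used an exact sign-flip permutation test. Data were simulated with the gene means and library sizes of these 6 sums (9379 genes run). In them 80% of 100 genes changed by a log2 of 1 and all of 100 changed by 2 were recovered, with 13 unchanged genes called. The simulation gave every gene the same dispersion and held no mouse effect. Recovery at the spread of these data, and of differences below a log2 of 1, was therefore not tested. DESeq2 1.42.0 was an alternative, as were other filters, scalings, cell choices and each mouse left out.

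Named genes were, per direction, the 12 widest log2 differences among calls other than light chain variable segments (given as a group) that averaged 20 CPM or more on the higher side and went the same way in 3 of 3 mice. With fewer than 12, all were named, then the 5 with the smallest unadjusted p that did not pass. List members that passed and a fixed set of genes of germinal center biology were always named, of which 1 is not reported here.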

Additional observations from a re-analysis of the deposited data

How the results depend on the processing

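The count of genes called between IgM and IgG1 cells (47) ran from 55 to 88 with 1 mouse left out, the highest without mouse 3. It was 20 with DESeq2's Wald test, 197 with no filter on low counts (13370 genes tested), 14 at 10 or more heavy-chain UMIs, 28 with the leading gene at 90% or more of heavy-chain UMIs, 129 with immunoglobulin genes left out, 27 in DZ cells, 22 in LZ cells and 29 in G1 cells. Without the replicate block 4 genes were called, 3 higher in IgM. The interaction with zone called 58 genes with no filter and 1 to 5 with a mouse left out; it could not be fitted at 10 or more heavy-chain UMIs. The DZ share difference was -1.33 points at 10 or more heavy-chain UMIs, 6.11 with equal cell numbers, 3.87 for V pairs found on both sides (added after seeing the data) and 4.80 to 5.11 with a mouse left out. The G1 difference was 6.92 at 10 or more heavy-chain UMIs and -2.61 to 0.49 with a mouse left out. The lambda difference was 3.98 at 10 or more heavy-chain UMIs and -4.91 to 0.63 with a mouse left out. Over the 25 named genes that passed, 498 values under the alternatives gave 336 that stayed past the threshold in the same direction, 161 in the same direction that missed it and 1 reversal, Swap70 at 0.065 with 10 or more heavy-chain UMIs. The cause of these changes was not tested. Fewer cells entered at 10 or more heavy-chain UMIs, which limits what that setting could call. Nothing says that the 3 mice are more than 1 cohort, and intervals cover counting error only.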

Other observations

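The same isotype rule was applied to the cells outside both zones, pooled over mice. Values are given with no test and with exact binomial intervals that cover counting error only. Slpi was at 54.1 CPM (40.0 to 71.6) in 186 IgM cells of the annotated preMem state and at 269.7 (200.8 to 354.6) in 29 IgG1 cells. In the LZtoDZ state it was at 319 (294 to 345) in 85 IgM cells and 911 (842 to 985) in 33 IgG1 cells. In plasma cells it was at 11390 (11093 to 11694) in 23 IgM cells and 18915 (18710 to 19122) in 63 IgG1 cells. Cd72 was at 459.5 (416 to 506) in IgM and 217 (156 to 294) in IgG1 preMem cells, and Foxp1 at 291 (256 to 328) and 127 (81.3 to 189). Cd72 was at 35.2 (27.3 to 44.6) in IgM and 24.2 (14.1 to 38.8) in IgG1 LZtoDZ cells. Foxp1 and Lmo4 were not higher in IgM there, at 35.2 (27.3 to 44.6) and 18.6 (13.1 to 25.8) in IgM and 38.4 (25.3 to 55.9) and 22.8 (13.0 to 37.0) in IgG1 cells. Ly6d differed little between preMem cells of either isotype, at 1301 (1228 to 1378) in IgM and 1370 (1208 to 1547) in IgG1 cells. The order of the sides for Slpi was the same in all 3 states as in the DZ and LZ cells. These cells share wells, and in part clones, with the members.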
